A study of Mus musculus with 20 samples.

Results

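Non-productive TCRα rearrangements are joins of a V and a J segment that cannot encode a receptor chain, because the join is out of frame or carries a stop codon in the CDR3, the loop spanning the join. They were taken from the TCRα clone tables as clones whose CDR3 translation held a frame break or a stop and whose first listed V gene was a TRAV gene. A clonotype, meaning 1 combination of V gene, J gene and CDR3 nucleotide sequence, counted once per mouse. In 17 mice, 22966 of 234306 clonotypes (9.80%) were non-productive. Of these, 22462 were out of frame and 504 (2.19%) kept the frame but held a stop codon.

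The TCRα locus rearranges on both chromosomes of a thymocyte and can rearrange again on the same chromosome, replacing an earlier join with one that uses V and J segments lying farther apart. Positive and negative selection in the thymus act on the receptor protein, and a failed join makes none. Its transcript travels in a T cell that carries a working join on the other chromosome, so its V, J and length profile was not picked for the protein it encodes.

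The series compared peripheral CD8 T cells of mice that differ in the proteasome subunits that make the peptides shown to thymocytes. All mice were on the C57BL/6 background, male and 9 to 12 weeks old. WT mice carry unaltered alleles, β5i-KO mice lack β5i, the immunoproteasome subunit encoded by Psmb8, and β5t-KO mice lack β5t, the subunit encoded by Psmb11 that is normally restricted to cortical thymic epithelial cells. BIT mice are homozygous for a Psmb8 allele in which the β5i sequence was replaced by that of β5t, so that β5t is made in all cells that would otherwise make β5i, while the normal Psmb11 gene is kept. From each mouse 1000000 TCRβ high CD4- CD8+ cells were sorted. The sample labels name lymph nodes and the protocol names lymph nodes and spleens. TCR libraries measure neither Psmb8 nor Psmb11 nor CD8, so the genotype and the sort could not be checked against their own transcripts. In-frame joins of invariant T cell subsets gave 0 to 8 clonotypes per mouse of the natural killer T cell type (TRAV11 or TRAV11D with TRAJ18). The mucosal-associated invariant type (TRAV1 with TRAJ33) gave 0 to 8 as well. These counts are of distinct joins, and an invariant receptor gives few of them however many cells carry it. The molecules of these joins were not computed, so the counts do not give the share of such cells.

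The set came from 4 mice each of the WT, β5t-KO and BIT genotypes and from 5 β5i-KO mice. The rule that defined it left out WT replicate 5, β5t-KO replicate 5 and BIT replicate 3. The number of non-productive clonotypes per mouse ranged from 64 in β5t-KO replicate 2 to 3214 in BIT replicate 1, with a median of 828, and it followed the size of the library, which ranged from 714 to 31623 clonotypes. β5t-KO mice had the smallest sets, 64, 213, 733 and 828 non-productive clonotypes. The non-productive clonotypes rested on 1243 to 46476 unique molecules per mouse. The clone table of β5i-KO replicate 4 held no clone under 9 reads, whereas in the other 16 mice clones of 1 read were present. A non-productive clonotype was called error-like when it lay 1 base from an in-frame clonotype of the same mouse and J gene with at least 5 times its molecules. There were 1858 of these (8.09%), from 1.14% of the non-productive clonotypes in β5i-KO replicate 4 to 11.7% in WT replicate 4. No library repeated another, since the non-productive clonotypes of any 2 mice of a group overlapped by at most 1.03% of the smaller set.

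The non-productive joins found in the most mice are shown to let the reader see what a failed join looks like. Sequences run from the codon of the first conserved residue of the CDR3 to that of the last, 5′ to 3′, and capitals mark bases that belong to neither the V nor the J segment. The 6 joins that recurred in the most mice, error-like joins left out and ties ordered by molecules, were:
TRAV1 with TRAJ22, no added base: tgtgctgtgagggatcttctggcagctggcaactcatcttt
TRAV1 with TRAJ22, 1 added base: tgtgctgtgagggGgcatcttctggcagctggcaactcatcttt
TRAV13-1 with TRAJ32: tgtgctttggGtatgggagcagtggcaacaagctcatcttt
TRAV19 with TRAJ53: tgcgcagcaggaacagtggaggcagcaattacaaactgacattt
TRAV5-4 with TRAJ57: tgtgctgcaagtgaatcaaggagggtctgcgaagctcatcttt
TRAV8-1 with TRAJ21: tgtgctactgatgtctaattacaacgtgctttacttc
The TRAV1 join without an added base was in 7 mice (1 WT, 2 β5i-KO, 1 β5t-KO and 3 BIT), with 133 molecules in all. Its 41 nucleotides leave 2 bases over after whole codons, so the J segment is read in a wrong frame. The next 4 joins were in 4 mice each, with 28 to 99 molecules, and the TRAV8-1 join was in 3 mice with 132 molecules. None of these 6 joins was present in every mouse of a group, and each was at most 0.0308% of the molecules of any mouse. In 4 of the 6 the V and J ends met without an added base, and the other 2 had 1 added base.

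The out-of-frame and the stop-codon joins with the most molecules in WT mice, error-like joins left out, show the 2 ways a join failed. None of them was seen in a second mouse.
TRAV8D-2 with TRAJ9, out of frame: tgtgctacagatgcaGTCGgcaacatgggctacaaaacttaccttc
TRAV12-2 with TRAJ5, out of frame: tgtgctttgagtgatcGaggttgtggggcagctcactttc
TRAV13D-2 with TRAJ15, stop codon: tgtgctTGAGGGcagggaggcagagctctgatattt
TRAV15D-2-DV6D-2 with TRAJ6, stop codon: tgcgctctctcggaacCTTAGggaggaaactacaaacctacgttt
The out-of-frame joins had 192 and 189 molecules, which were 0.248% and 0.244% of the molecules of their mouse. The stop-codon joins had 53 and 51 molecules, and their stop lay in the added bases. Both listed further V genes, so their V copy is uncertain. Over all 504 stop-codon clonotypes there were 509 stop codons, of which 214 were UAG, 199 UGA and 96 UAA. Of these codons 51.1% lay in the J part, 44.8% lay in added bases or across an end, and 4.13% lay in the V part. On the mouse genome build GRCm39 (GENCODE vM39) the named segments lie on the plus strand, TRAV1 at chr14:52665385-52666333, TRAV8D-2 at chr14:53279885-53280348, TRAJ22 at chr14:54434705-54434764 and TRAJ9 at chr14:54446850-54446907. All are annotated as V or J gene segments, the CDR3 bases coming from the 3′ end of the V exon and the 5′ end of the J exon, and lower TRAJ numbers lie farther from the V genes.

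The share of clonotypes that were non-productive was compared with WT mice. It was 8.10%, 8.0%, 8.62% and 10.01% in the 4 WT mice. It was 10.3%, 8.91%, 10.4%, 9.33% and 8.70% in the 5 β5i-KO mice. The β5t-KO mice had 10.9%, 8.96%, 8.30% and 10.9%, and the BIT mice had 10.2%, 9.88%, 9.31% and 10.5%. WT replicate 4 lay inside the range of every other genotype, so the groups overlapped. WT replicates 1, 2 and 3 lay below every BIT mouse. WT mice averaged 8.68% ± 0.93 (SD, n = 4), β5i-KO mice 9.53% ± 0.78 (n = 5), β5t-KO mice 9.78% ± 1.35 (n = 4) and BIT mice 9.95% ± 0.49 (n = 4). By an exact two-sided permutation test against WT the p was 0.167, 0.2 and 0.0857 for the 3 genotypes, adjusted to 0.2 in each case. For all failed joins together no difference passed the test. The stop-codon clonotypes alone were taken as a share of stop-codon and in-frame clonotypes together, with out-of-frame clonotypes left out. This share was smaller in β5i-KO mice (-0.141 percentage points) and in BIT mice (-0.158), and both differences passed (exact permutation adjusted p = 0.0476 each). It was 0.271% to 0.390% in WT mice, 0.168% to 0.227% in BIT mice without overlap, and 0.0881% to 0.313% in β5i-KO mice, where replicate 2 lay among the WT mice. These shares rest on 7 to 72 stop-codon clonotypes per WT mouse, 6 to 56 per β5i-KO mouse and 17 to 56 per BIT mouse. Error-like clonotypes averaged 9.90% of the non-productive set in WT, 6.61% in β5i-KO and 6.93% in BIT mice. The stop-codon share was not computed without them. Molecules per in-frame clonotype also differed, from 19.1 to 30.1 in WT mice and from 7.82 to 13.4 in BIT mice. In β5i-KO mice they were 1.98, 7.71 and 10.0 in replicates 4, 1 and 3, and 27.0 and 22.2 in replicates 2 and 5. Whether the stop-codon share follows these molecule numbers was not tested. These permutation tests used 1 value per mouse. With 4 mice against 4 the smallest p is 0.0286, and 1 such result alone becomes 0.0857 over 3 comparisons, so it cannot pass 0.05. The exact binomial 95% interval of a single mouse was 6.97% to 11.3% in the smallest library and 9.83% to 10.5% in the largest. These intervals cover counting error only.

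**Figure D1:**
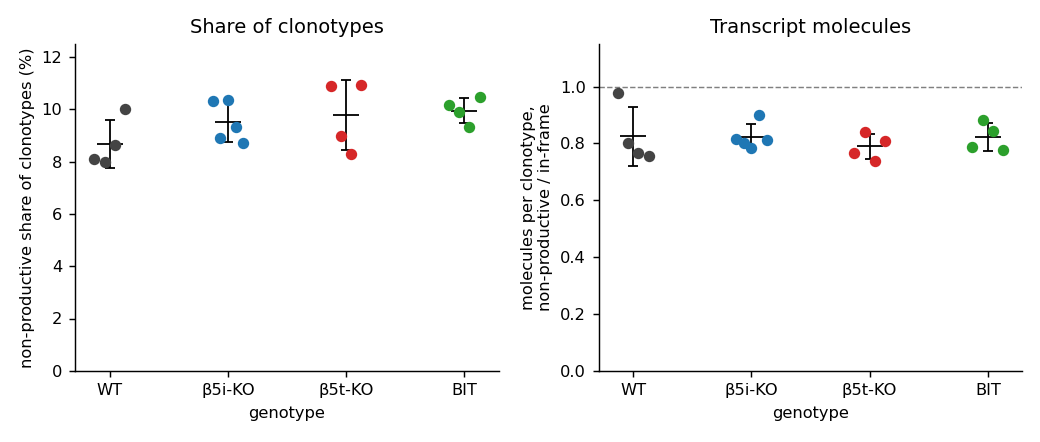
Left, percent of TCRα clonotypes that were non-productive. Right, ratio of mean unique molecules per clonotype, non-productive over in-frame, with 1 (equal) as a dashed line. Each point is a mouse, bars are mean and SD, and the x axis gives the genotype. The shares run from 8.0% to 10.9% over the 17 mice and the 4 genotypes overlap, and all 17 ratios lie below 1.

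Non-productive clonotypes had fewer transcript molecules than in-frame clonotypes of the same mouse. The log2 ratio of the mean unique molecules per clonotype averaged -0.30 ± 0.10 (SD, n = 17) and was below 0 in 17 of 17 mice (permutation test with signs flipped within mice, two-sided, 100000 resamples, p = 2e-05, adjusted p = 4.5e-05 over 9 measures). It ranged from -0.44 in β5t-KO replicate 3 to -0.03 in WT replicate 1, where 27.0 molecules per non-productive clonotype stood against 27.6 per in-frame clonotype. In that mouse the log2 ratio was above 0 with out-of-frame clonotypes only (0.0062), without error-like clonotypes (0.0682) and with clonotypes of at least 2 molecules (0.0894). In these bulk libraries fewer cells per clone and less RNA per cell cannot be told apart. No genotype's ratio was set apart from that of WT mice by the test (exact permutation adjusted p = 1 for each). By molecules, the non-productive share was 6.27% to 9.05% per mouse, and 12.98% of non-productive against 9.10% of in-frame clonotypes rested on 1 molecule.

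The V genes of failed joins were then set against those of in-frame joins in the same mouse. Of 90 TRAV genes tested with the mouse as a block, 63 (70%) differed in their share between the classes, 38 (42.2%) higher and 25 (27.8%) lower among non-productive clonotypes (edgeR quasi-likelihood test, Benjamini-Hochberg adjusted p under 0.05). The split depends on the scale, because shares are relative: with TMM scaling the median log2 difference over the 90 genes moved from 0.18 to -0.07 and the calls became 27 higher and 34 lower. Among the genes named from this comparison, TRAV13-4-DV7 and TRAV13D-2 lost their call under that scaling, TRAV7D-5 gained one, and the others kept direction and call. Over 104 TRAV genes the pooled shares of the classes had a Pearson r of 0.69 and a Spearman rho of 0.83, which is a description across genes from the same libraries. Of the 104 genes 100 had a non-productive clonotype.

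TRAV1, the V gene farthest from the J genes and the one used by mucosal-associated invariant T cells, had the largest difference of the 86 tested TRAV genes not annotated as pseudogenes. It made up 5.47% of non-productive and 0.921% of in-frame clonotypes, a 6.01-fold difference (log2 2.59 ± 0.07 SE, adjusted p = 2.48e-208). Its share of the non-productive set was higher than its share of the in-frame set in 17 of 17 mice, with a lowest value of 1.56%, a median of 5.25% and a highest of 9.03%, against 0.346%, 0.811% and 1.45%. Of all 3203 TRAV1 clonotypes 39.2% had failed. TRAV3D-3 was the most used V gene of the non-productive set, 7.70% of it against 3.10% of in-frame clonotypes (log2 1.31 ± 0.05 SE, adjusted p = 1.16e-116, higher in 17 of 17 mice). Of its non-productive clonotypes 84.5% listed further V genes, so its count may include near-identical copies.

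**Figure D2:**
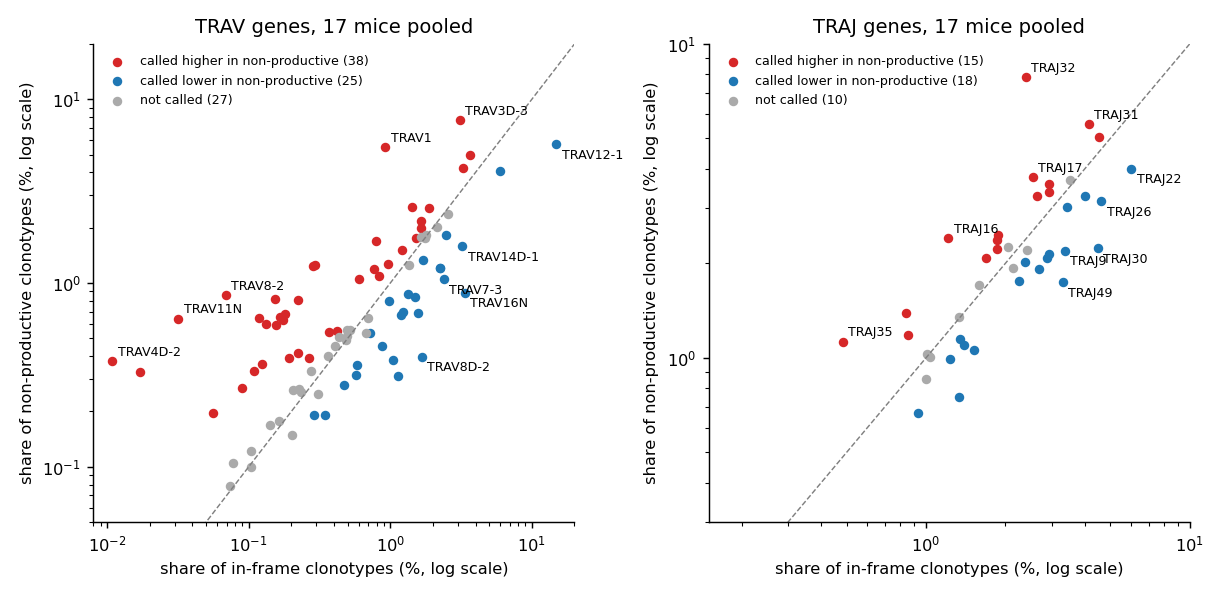
Share of non-productive clonotypes in percent (y axis) against the share of in-frame clonotypes (x axis) for the 90 TRAV genes (left) and 43 TRAJ genes (right) tested, pooled over 17 mice, on log axes with equal shares as a dashed line. Red points were called higher and blue points lower among non-productive clonotypes. TRAV1, TRAV3D-3 and TRAJ32 lie above the line, and TRAV12-1 and TRAJ30 lie below it.

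The genes with a lower share among failed joins included the most used gene of the working repertoire. TRAV12-1 supplied 14.8% of in-frame and 5.70% of non-productive clonotypes, 2.58-fold less (log2 -1.37 ± 0.04 SE, adjusted p = 7.21e-165), and was lower in 17 of 17 mice. Its non-productive share ran from 3.13% to 8.81% with a median of 5.97%, and its in-frame share from 12.7% to 20.4%, so that these ranges did not meet. TRAV16N fell from 3.36% to 0.888% of clonotypes (log2 -1.92 ± 0.09 SE) and TRAV8D-2 from 1.67% to 0.396% (log2 -2.07 ± 0.14 SE). TRAV7-3 (log2 -1.17 ± 0.10 SE) and TRAV14D-1 (log2 -1.03 ± 0.08 SE) were lower too. Error-like clonotypes made up 19.7% of the non-productive TRAV12-1 set, and the difference remained called without them. Further V genes were listed for 85.6% of the non-productive TRAV12-1 clonotypes and 50.5% of the TRAV14D-1 clonotypes, so these counts may include near-identical copies.

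The subgroups, which are families of V genes with related sequences, did not move alike. Beside 42.2% higher and 27.8% lower over all TRAV genes tested, 6 of 7 TRAV14 genes were lower, as were both TRAV16 genes and 5 of 10 TRAV7 genes, with 1 TRAV7 gene higher. All 5 TRAV15 genes were higher, as were 8 of 13 TRAV6 genes, 5 of 7 TRAV4 genes and 6 of 9 TRAV13 genes, with 1 TRAV4 gene and 2 TRAV13 genes lower. The TRAV12 subgroup was mixed, with 2 genes higher and 2 lower of 6. Place on the chromosome did not order the differences, with a Spearman rho of 0.04 between the log2 difference and the distance to the J genes over 90 TRAV genes, a description across genes.

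The TRAV genes that GENCODE annotates as pseudogenes gave the largest differences of all. This grouping was chosen after their values were seen. A pseudogene segment carries a defect of its own, so a join that keeps the reading frame still makes no working receptor. TRAV4D-2 had 86 non-productive and 23 in-frame clonotypes (log2 4.90 ± 0.28 SE), TRAV11N had 147 and 67 (log2 4.25 ± 0.22 SE), TRAV20 had 75 and 36 (log2 4.11 ± 0.27 SE) and TRAV8-2 had 197 and 145 (log2 3.60 ± 0.19 SE). Each was called higher (edgeR quasi-likelihood adjusted p from 2.68e-71 for TRAV8-2 and 1.68e-73 for TRAV11N to 4.35e-47 for TRAV20). Over the 4 genes 271 of 776 clonotypes (34.9%) kept the frame, against 90.4% over the other 100 TRAV genes. The exact binomial 95% interval was 31.6% to 38.4%, which treats clonotypes pooled over mice and genes as independent. By gene the share was 21.1% in TRAV4D-2 (interval 13.9% to 29.96%) and 31.3% in TRAV11N (25.2% to 37.98%). It was 32.4% in TRAV20 (23.9% to 41.97%) and 42.4% in TRAV8-2 (37.1% to 47.8%). If the 3 possible remainders of the length were equally frequent, 33.3% would keep the frame. That figure includes joins with a stop codon, which the observed shares leave out. It lay above the interval of TRAV4D-2, below that of TRAV8-2 and inside those of TRAV11N and TRAV20. Among the 86 other tested TRAV genes 34 were higher, 25 lower and 27 not called, with a median log2 difference of 0.14.

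An earlier analysis of the in-frame clones of these mice had singled out 7 TRAV genes. In the comparison with failed joins 2 of the 7 were higher and 4 lower, beside 42.2% higher and 27.8% lower over all TRAV genes tested. Besides TRAV12-1 and TRAV7-3, the lower genes were TRAV14-1 (log2 -0.85 ± 0.11 SE, lower in 17 of 17 mice) and TRAV17 (log2 -0.62 ± 0.11 SE). TRAV13D-2 was higher (log2 0.30 ± 0.10 SE), and TRAV13-4-DV7 only just passed (log2 0.37 ± 0.18 SE, edgeR quasi-likelihood adjusted p = 0.0495). The TRAV13-4-DV7 call was lost when any 1 of 10 mice was left out, 0.28 without WT replicate 4 being the lowest value. It was also lost with TMM scaling (0.13), DESeq2 (0.37), unique molecules (0.03), out-of-frame clonotypes only (0.37) and without error-like clonotypes (0.37). With unique molecules TRAV17 (-0.60) and TRAV13D-2 (0.40) were not called either (edgeR quasi-likelihood adjusted p = 0.309 each). Of the non-productive TRAV13D-2 clonotypes 76.9% listed further V genes, and of those of TRAV7D-5 53.9%. TRAV7D-5 was not called (log2 -0.05 ± 0.08 SE, edgeR quasi-likelihood adjusted p = 0.605).

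Failed and working joins were compared in their J genes too. Of 43 TRAJ genes 33 (76.7%) were called, 15 (34.9%) higher and 18 (41.9%) lower among non-productive clonotypes, with a median log2 difference of -0.04. With unique molecules in place of clonotypes 13 TRAJ genes were called, 6 higher and 7 lower. TRAJ32 was the extreme case, 7.85% of non-productive against 2.39% of in-frame clonotypes (log2 1.71 ± 0.06 SE, edgeR quasi-likelihood adjusted p = 1.27e-117). Its non-productive share ran from 6.14% to 17.2% over the mice with a median of 7.83%, above the highest in-frame share of 3.08%, and 26.3% of all TRAJ32 clonotypes had failed. The top value came from β5t-KO replicate 2, where it was 11 of 64 clonotypes.

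TRAJ35 (log2 1.23 ± 0.12 SE), TRAJ16 (log2 0.99 ± 0.08 SE), TRAJ17 (log2 0.56 ± 0.07 SE) and TRAJ31 (log2 0.43 ± 0.06 SE) were also higher. With unique molecules TRAJ35 (1.1502, edgeR quasi-likelihood adjusted p = 0.0678) and TRAJ16 (0.53, adjusted p = 0.126) were no longer called. The genes named in each direction are those of smallest p, not of largest difference. On the low side TRAJ30 fell from 4.48% to 2.23% (log2 -1.0 ± 0.07 SE, lower in 17 of 17 mice), and lower too were TRAJ49 (log2 -0.93 ± 0.09 SE), TRAJ9 (log2 -0.62 ± 0.08 SE), TRAJ22 (log2 -0.59 ± 0.06 SE) and TRAJ26 (log2 -0.56 ± 0.07 SE). Error-like clonotypes were 25.0% of the non-productive TRAJ16 set and 23.9% of the TRAJ22 set. Of the 4 TRAJ genes named in the earlier in-frame analysis 1 was higher, TRAJ23 (log2 0.14 ± 0.06 SE), and 3 were lower, TRAJ9, TRAJ7 (log2 -0.49 ± 0.09 SE) and TRAJ15 (log2 -0.29 ± 0.07 SE). The TRAJ23 call was lost without BIT replicate 1 (0.11) or BIT replicate 5 (0.12), with DESeq2 (0.14) and without error-like clonotypes (0.12), and with unique molecules the value turned to -0.28. TRAJ15 was not called with unique molecules (-0.47). The pairs with the most failed joins were TRAV12-1 with TRAJ32 (154 clonotypes), TRAV3D-3 with TRAJ23 (118) and TRAV1 with TRAJ23 (107).

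Failed joins were longer and more varied in length than working joins. The mean CDR3 length was 41.5 ± 0.18 nucleotides for non-productive and 40.9 ± 0.32 for in-frame clonotypes (SD, n = 17 mice). The difference averaged 0.584 nucleotides and was above 0 in 16 of 17 mice (sign-flip permutation test, adjusted p = 4.5e-05 over 9 measures). The exception was β5t-KO replicate 2, at -0.100. The SD of the length within a mouse was 4.81 nucleotides for non-productive and 4.38 for in-frame clonotypes, a difference of 0.435 that was above 0 in 16 of 17 mice, all but β5i-KO replicate 2 (permutation adjusted p = 7.2e-05). In the pooled set 1.18% of non-productive clonotypes were under 30 nucleotides and 1.65% over 51, against 0.418% and 0.347% of in-frame clonotypes. The medians were 41 and 42 nucleotides. Since the frame is set by the length, out-of-frame and in-frame clonotypes cannot share a length within 1 pair of V and J segments.

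**Figure D3:**
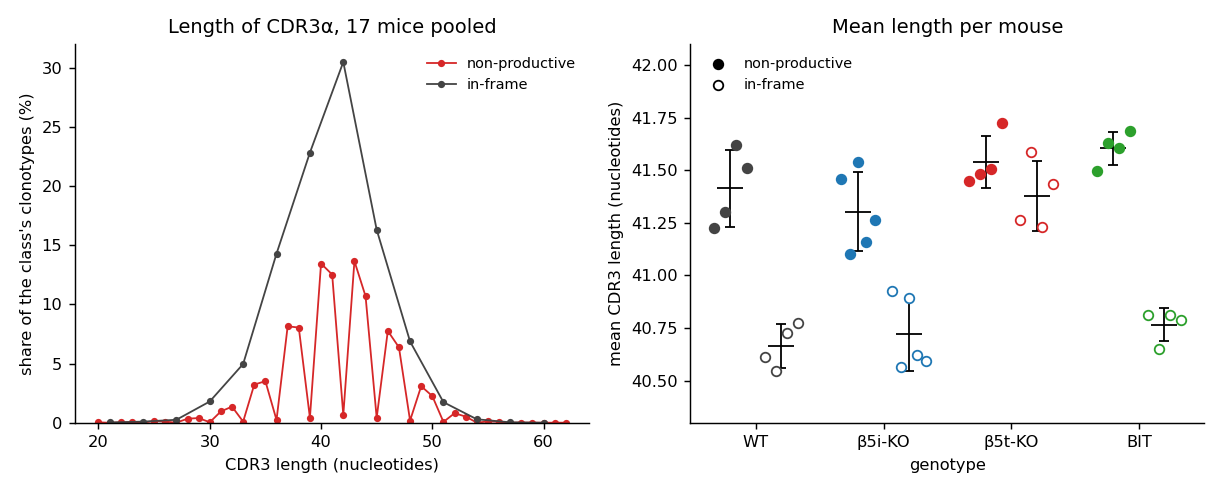
Left, share of each class's clonotypes in percent (y axis) by CDR3 length in nucleotides (x axis), pooled over 17 mice. Right, mean length per mouse by genotype, with filled points for non-productive and open points for in-frame clonotypes, and mean and SD as bars on an axis that does not start at 0. In-frame lengths fall at multiples of 3 and non-productive lengths mostly between them.

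The junction itself differed by a fraction of a base. Bases between the V and the J end numbered 2.54 ± 0.12 in non-productive and 2.30 ± 0.10 in in-frame clonotypes (SD, n = 17 mice), a difference of 0.246 that was above 0 in 17 of 17 mice (permutation adjusted p = 4.5e-05). Trimming of the V end was 2.20 against 2.10 bases, larger in 13 of 17 mice (permutation adjusted p = 0.00207). Trimming of the J end (2.94 against 2.90 bases, permutation adjusted p = 0.261) and the share without added bases (25.3% against 26.6%, permutation adjusted p = 0.0925) did not pass the test. The share without added bases passed without β5i-KO replicate 2 (-1.51 percentage points), weighted by molecules (-5.71, permutation adjusted p = 4.67e-05), without error-like clonotypes (-2.04, permutation adjusted p = 0.00435) and for stop-codon clonotypes alone (-7.97, permutation adjusted p = 0.0297). The mean TRAJ number was 28.3 for non-productive and 28.5 for in-frame clonotypes, and this difference did not pass either (permutation adjusted p = 0.229). Weighted by molecules the difference turned to 0.626 and passed (permutation adjusted p = 0.0119), and for stop-codon clonotypes alone it was -2.52 and passed (permutation adjusted p = 0.000987). Stop-codon clonotypes are defined by a stop in the CDR3, and 51.1% of these codons lay in the J part and 44.8% in added bases or across an end. Their J genes and added bases are thus tied to the definition, and these 2 tests are not free of it. The V-trimming difference did not pass for stop-codon clonotypes alone (0.183, permutation adjusted p = 0.404).

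Failed joins recurred far less across mice. Of 22502 distinct non-productive clonotypes 417 (1.85%) were found in at least 2 mice, against 22071 of 171196 (12.9%) for in-frame clonotypes. Only 2 were found in at least 5 mice, 1 of them error-like, against 2251 in-frame clonotypes, and the most widespread were in 7 and 16 mice. Because there are fewer failed joins to match, the share expected when 64 clonotypes of each class are drawn per mouse was computed. At that number 0.240% ± 0.083 of non-productive and 0.540% ± 0.118 of in-frame clonotypes would occur in the draw of another mouse (SD, n = 17). The non-productive value was lower in 17 of 17 mice (permutation adjusted p = 4.5e-05). A shared clonotype counts in both of its mice, so these 17 values are not fully independent and the p is approximate.

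**Figure D4:**
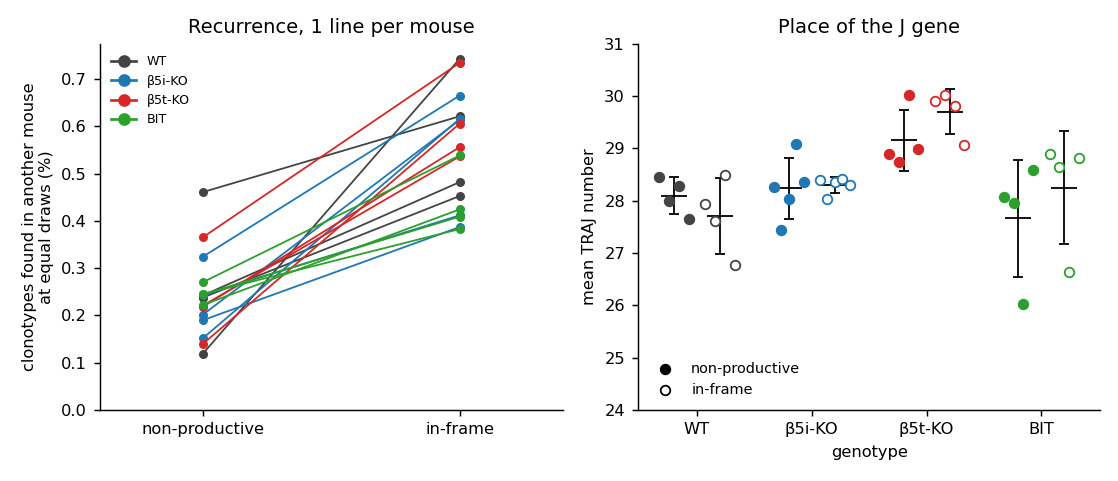
Left, percent of clonotypes found in another mouse at equal draws of 64 per mouse and class, with 1 line per mouse coloured by genotype. Right, mean TRAJ number per mouse by genotype, filled for non-productive and open for in-frame clonotypes, with mean and SD on an axis that does not start at 0. Recurrence is lower in the non-productive class in all 17 mice, and the 4 β5t-KO mice lie above the 4 WT mice in both classes.

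The genotypes were then compared within the non-productive set. Of 84 TRAV genes 1 (1.19%) was called in β5i-KO mice, and 0 (0%) in β5t-KO and 0 in BIT mice (edgeR quasi-likelihood test). At an unadjusted p under 0.05 there were 7, 4 and 4 genes (8.33%, 4.76% and 4.76%). DESeq2 called 0 in each, with 2, 2 and 1 at an unadjusted p under 0.05. Of 43 TRAJ genes edgeR called 0 in each genotype, with 5, 6 and 7 (11.6%, 14% and 16.3%) at an unadjusted p under 0.05. DESeq2 called 0 as well, with 3, 6 and 2 unadjusted. The smallest adjusted p among TRAJ genes was 0.119, 0.0516 and 0.152 in β5i-KO, β5t-KO and BIT mice by edgeR's quasi-likelihood test.

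The called gene was TRAV7D-5. Its share of non-productive clonotypes was 5.73%, 2.24%, 2.48% and 3.23% in WT mice and 1.404%, 3.59%, 0.840%, 1.14% and 4.09% in β5i-KO mice. The groups overlapped, 3 β5i-KO mice lying below all WT mice and the other two among them. The fitted difference was -0.93 ± 0.24 (log2, SE; edgeR quasi-likelihood adjusted p = 0.00668). In-frame TRAV7D-5 clonotypes of the same mice gave -0.79 (edgeR quasi-likelihood adjusted p = 0.0544). The call was lost without WT replicate 4 (-0.84), β5i-KO replicate 1 (-0.82) or β5i-KO replicate 3 (-0.59), and under 4 other settings with values from -1.02 to -0.50.

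**Figure D5:**
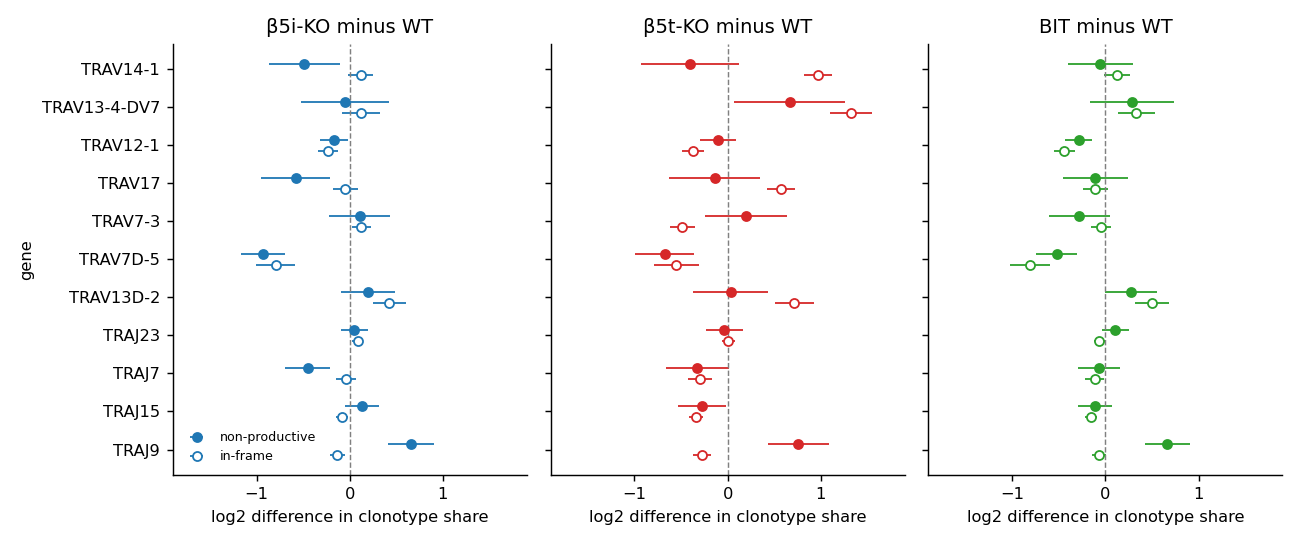
Log2 difference in clonotype share from WT (x axis) for the 7 TRAV and 4 TRAJ genes named earlier from in-frame clones (y axis), in β5i-KO, β5t-KO and BIT mice. Filled points are non-productive and open points in-frame clonotypes, and bars are the SE derived from the F-test of the fit. In β5t-KO mice TRAV14-1 stands at -0.40 among non-productive and 0.97 among in-frame clonotypes, and the filled points have the wider bars.

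The same genes in in-frame clonotypes gave 7 TRAV (8.33%, 5 or 5.95% higher and 2 or 2.38% lower) and 14 TRAJ genes (32.6%, 7 higher and 7 lower) in β5t-KO mice, 2 TRAV genes (2.38%) in BIT mice and 0 TRAV genes in β5i-KO mice by edgeR (DESeq2 0). The numbers of clonotypes differ between the classes. The median SE of a β5t-KO difference was 0.58 log2 units for non-productive and 0.24 for in-frame TRAV genes, and 0.33 and 0.12 for TRAJ genes. A change of the in-frame size was therefore not always detectable among failed joins, and a call in 1 class only does not show that the classes differ.

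The β5t-KO values of the genes named earlier are given side by side, the in-frame list having been chosen on these mice. TRAV14-1 supplied 0.441%, 1.31%, 0.913% and 0.930% of non-productive clonotypes in WT mice and 0.725%, 0%, 0.409% and 1.88% in β5t-KO mice. These ranges overlapped, and the β5t-KO values rest on 6, 0, 3 and 4 clonotypes. In-frame, it supplied 0.932%, 1.35%, 1.39% and 1.36% in WT mice and 2.46%, 1.23%, 2.59% and 3.34% in β5t-KO mice, 3 of which lay above all WT mice. The log2 differences were -0.40 ± 0.53 and 0.97 ± 0.15 (edgeR quasi-likelihood adjusted p = 0.960 and 4.02e-05), and their difference, -1.36 ± 0.48, did not pass (adjusted p = 0.224).

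For TRAV13-4-DV7 the non-productive and in-frame differences were 0.66 ± 0.60 and 1.32 ± 0.23, for TRAV17 -0.14 ± 0.49 and 0.57 ± 0.16, and for TRAV13D-2 0.03 ± 0.40 and 0.72 ± 0.21 (log2, SE). For the genes that were lower in-frame they were 0.20 ± 0.44 and -0.48 ± 0.13 in TRAV7-3 and -0.10 ± 0.19 and -0.37 ± 0.12 in TRAV12-1. TRAV7D-5 had -0.68 ± 0.31 and -0.55 ± 0.24, and was called in neither class. Among TRAJ genes TRAJ15 had -0.27 ± 0.26 and -0.34 ± 0.08, TRAJ7 -0.32 ± 0.34 and -0.30 ± 0.13, TRAJ23 -0.04 ± 0.20 and 0.01 ± 0.07, and TRAJ9 0.76 ± 0.33 and -0.27 ± 0.10. None of the 7 TRAV and 4 TRAJ genes was called among failed joins of β5t-KO mice, beside 0% of all genes.

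Whether a genotype difference itself differed between failed and working joins was tested as an interaction. Of 90 TRAV genes 0 passed in each genotype by edgeR, with 5, 5 and 4 at an unadjusted p under 0.05 (5.56%, 5.56% and 4.44%), and DESeq2 called 0, with 2, 3 and 2 unadjusted. Of 43 TRAJ genes 3 (6.98%) passed in β5i-KO mice and 0 in β5t-KO and BIT mice by edgeR, with 7, 8 and 7 unadjusted. DESeq2 called 0, with 5, 6 and 6 unadjusted. The 3 genes were TRAJ22 (-0.48 ± 0.15 log2), TRAJ9 (0.77 ± 0.24) and TRAJ39 (0.75 ± 0.26), with edgeR quasi-likelihood adjusted p of 0.0366, 0.0366 and 0.0489.

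TRAJ9 supplied 0.441%, 0.748%, 1.96% and 1.47% of non-productive clonotypes in WT mice and 2.70%, 1.89%, 2.42%, 1.86% and 1.59% in β5i-KO mice, so that the groups overlapped at WT replicate 3. TRAJ39 supplied 0.441%, 0.748%, 1.5% and 1.47% in WT mice and 2.25%, 1.32%, 2.13%, 2.43% and 2.50% in β5i-KO mice. TRAJ22 supplied 3.52%, 4.67%, 5.09% and 5.19% in WT mice and 3.02%, 4.73%, 4.10%, 3.86% and 3.41% in β5i-KO mice. For TRAJ39 β5i-KO replicate 2 lay among the WT values and the other 4 β5i-KO mice above them, and for TRAJ22 3 of the 5 β5i-KO mice lay within the WT range. All 3 calls were lost under 7 other settings, and 0 genes passed without WT replicate 4, β5i-KO replicate 1 or β5i-KO replicate 5. Without WT replicate 1, 2 or 3 or β5i-KO replicate 3, 1 gene passed. Over the 17 fits with 1 mouse left out, TRAJ39 lost its call in 12, TRAJ9 in 6 and TRAJ22 in 4. TRAJ39 also lost it with BIT replicate 3 added (edgeR quasi-likelihood adjusted p = 0.0589), a mouse outside this comparison.

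The mean position of J use lay higher in β5t-KO mice than in WT mice in both classes, but short of the adjusted threshold. The mean TRAJ number of failed joins was 28.5, 27.99, 28.3 and 27.6 in WT mice and 28.9, 28.8, 30.02 and 28.99 in β5t-KO mice, so that every β5t-KO mouse lay above every WT mouse, that is, nearer to the V genes. The difference was 1.07 (exact permutation test, p = 0.0286 before and 0.0857 after adjustment over 3 comparisons). In-frame joins differed by 2.01 in the same direction, also without overlap (exact permutation adjusted p = 0.0857). The non-productive difference minus the in-frame difference was -0.94 (exact permutation p = 0.0857, adjusted p = 0.129). Failed joins of β5i-KO (28.2 ± 0.59, SD, n = 5) and BIT mice (27.7 ± 1.12, SD, n = 4) overlapped WT mice (28.1 ± 0.35, SD, n = 4), with exact permutation adjusted p of 0.722 each. In BIT mice the difference between classes stood 0.98 below that of WT mice, without overlap (exact permutation adjusted p = 0.0857).

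The length of failed joins did not separate the genotypes. The mean was 41.4 ± 0.18 nucleotides in WT mice (SD, n = 4), 41.3 ± 0.19 in β5i-KO mice (n = 5), 41.5 ± 0.12 in β5t-KO mice (n = 4) and 41.6 ± 0.08 in BIT mice (n = 4), with exact permutation adjusted p of 0.389 for each against WT. In-frame joins of β5t-KO mice were longer than those of WT mice, 41.4 against 40.7 nucleotides without overlap (exact permutation p = 0.0286, adjusted p = 0.0857). The excess of failed over working joins was 0.749 ± 0.117 nucleotides in WT mice, from 0.611 to 0.896, and 0.164 ± 0.182 in β5t-KO mice, from -0.100 to 0.291. The groups did not overlap and differed by -0.585 (exact permutation p = 0.0286, adjusted p = 0.0595). In β5i-KO mice the excess was 0.583 ± 0.069 (difference -0.166, exact permutation adjusted p = 0.0595) and in BIT mice 0.838 ± 0.127 (0.0892, exact permutation adjusted p = 0.371). Without WT replicate 1 the β5t-KO and β5i-KO differences were -0.631 and -0.212 and passed (exact permutation adjusted p = 0.0429 each). The SD of the length, the bases between V and J and the trimming of either end of failed joins overlapped WT mice in every genotype, with the smallest exact permutation adjusted p at 0.333 over these and the share without added bases. In-frame joins had less J trimming than in WT mice (2.97 bases), without overlap. It was 2.91 in β5i-KO and 2.77 in β5t-KO mice (exact permutation adjusted p = 0.0238 and 0.0429). In-frame V trimming was 1.84 in β5t-KO and 2.17 in WT mice, without overlap (exact permutation adjusted p = 0.0857). Neither genotype's class difference in J trimming passed (exact permutation adjusted p = 0.643 and 0.343).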

How the data were processed

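Total RNA of the sorted T cells had been made into TCR libraries with a SMARTer kit for mouse TCR a/b profiling (Takara) and assembled into clones by the authors with MiXCR, whose version and settings are not given in the sources used here (the submitters' processing notes name the build mm10). The deposited values are whole-number read counts and unique molecule counts per TCRα clone and mouse, without normalisation. TCRβ clones were not used.

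Clones with the same first V gene, first J gene and CDR3 nucleotides were merged within a mouse. The members and gene lists were chosen with earlier results of these data known. Clonotypes per TRAV or TRAJ gene were tested with edgeR 4.0.16 in R 4.3.3 (quasi-likelihood F-test, library totals as sizes, Benjamini-Hochberg over all genes tested, threshold 0.05). The SE printed beside an edgeR log2 difference is its absolute value divided by the square root of the F statistic. Between classes, with the mouse as a block, a gene was tested if 4 or more mice had 10 or more of its clonotypes, and between genotypes if 4 or more mice had 5 or more non-productive ones. Values per mouse were tested by permutation in Python 3.11.15 with NumPy 2.4.6, over 3 comparisons with WT or 9 measures. Binomial intervals came from SciPy 1.17.1. In each direction up to 5 called genes of smallest p were named per comparison, beside the earlier list of 11 genes, of which 7 are TRAV and 4 TRAJ genes. TRAV20 was named after its values were seen. The in-frame comparison between genotypes, the trimming and the tests of differences between classes per genotype were added after seeing the data. Alternatives were TMM, DESeq2 1.42.0, other counting units and clone filters, each mouse left out and replicate blocks. The scripts were tested on simulated data. Coordinates come from GENCODE vM39 (GRCm39), by gene name, since the clone tables hold none. The libraries held 1983032 to 8480570 reads and 14772 to 602397 molecules.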

Additional observations from a re-analysis of the deposited data

Results flagged for a closer look

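Among 84 genotype groups of listed genes and measures, 5 (5.95%) held a mouse that stood apart from the others of its group, where chance alone gives about 5%. All 5 came from β5t-KO replicate 2, with 64 non-productive clonotypes, or β5i-KO replicate 2, with 529. TRAV7D-5 was 6.25% of non-productive clonotypes in β5t-KO replicate 2 and 1.501% to 1.88% in the other β5t-KO mice. TRAV13D-2 was at 0% in β5t-KO replicate 2, 0 of 64 clonotypes, which allows a share of up to 4.69%, and 1.36% to 1.45% in the other β5t-KO mice. TRAV14-1 was 0.189% in β5i-KO replicate 2 and 0.682% to 0.737% in the other β5i-KO mice. TRAV12-1 was 8.70% there against 5.07% to 6.0%, and TRAJ15 5.86% against 2.73% to 3.58%.

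The difference between β5i-KO and WT mice differed between failed and in-frame joins for TRAJ22 (-0.48 log2), TRAJ9 (0.77) and TRAJ39 (0.75) by edgeR's test of the interaction. These are the calls that were lost under 7 other settings.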

How the results depend on the processing

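Depth limits the genotype comparisons, since the β5t-KO mice had 64 to 828 failed joins. Between classes, leaving out each mouse gave 60 to 63 TRAV and 31 to 34 TRAJ calls. By V subgroup 15 of 20 were called, 9 higher and 6 lower. With unique molecules in place of clonotypes 21 TRAV genes were higher and 22 lower and 13 TRAJ genes were called, 6 higher and 7 lower, and TRAJ23 turned to -0.28. TMM scaling shifted the TRAV median by -0.25. The cause of these changes was not tested. No pairing by replicate number was seen, as the deviations of same-numbered mice had a median correlation of -0.04 (from -0.18 to 0.14, 22 pairs) against 0.01 for other pairs. Such correlations do not show that a pairing was absent. With a replicate block 1 TRAJ gene was called in BIT mice in place of 0, and the TRAV count in β5i-KO mice stayed at 1. Without the mouse as a block the classes gave 62 TRAV and 32 TRAJ calls.

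For failed joins against WT, the TRAV count in β5i-KO mice was 0 with DESeq2, unique molecules, clones of at least 2 molecules, single-V clones or V subgroups, and 0 to 3 with 1 mouse left out (3 without WT replicate 2). The TRAV count in BIT mice was 1 with out-of-frame clones only, without error-like clones or with at least 2 molecules, and 0 to 1 with 1 mouse left out (1 without WT replicate 2). The TRAJ count in β5t-KO mice was 1 with TMM and 0 to 2 with 1 mouse left out (2 without WT replicate 1, β5t-KO replicate 1 or BIT replicate 4, 1 without WT replicate 4). Interaction counts for TRAV in β5i-KO mice were 1 with no filter or at least 2 molecules, and 0 to 1 with 1 mouse left out (1 without WT replicate 1 or 3, β5i-KO replicate 2, 4 or 5 or BIT replicate 5). For TRAJ in β5i-KO mice they were 0 with TMM, DESeq2, unique molecules, out-of-frame clones only, no error-like clones, at least 2 molecules or single-V clones, and 0 to 3 with 1 mouse left out. For TRAJ in β5t-KO mice the count was 1 with unique molecules and 0 to 2 with 1 mouse left out (2 without WT replicate 3), and in BIT mice 0 to 1 (1 without WT replicate 3 or BIT replicate 5).

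Differences of β5t-KO mice from WT that turned with unique molecules were TRAV17 (0.62), TRAV7D-5 (0.31), TRAV13D-2 (-0.66), TRAJ15 (0.32) and TRAJ9 (-0.18). TRAV13D-2 also turned with TMM (-0.0313), without error-like clones (-0.0392) and with at least 2 molecules (-0.26). With 1 mouse left out TRAV17 ran from -0.75 to 0.20, TRAV7-3 from -0.11 to 0.85, TRAV13D-2 from -0.0495 to 0.0887 and TRAJ23 from -0.12 to 0.18.

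Within mice, stop-codon clones alone gave a TRAJ number difference of -2.52, V trimming of 0.183 and a share without added bases of -7.97 points. Weighting by molecules gave a TRAJ number difference of 0.626 and a share of -5.71, and leaving out error-like clones 0.0167 and -2.04. Of these the TRAJ number values -2.52 and 0.626 and all 3 shares were past the threshold. The values -2.52 and -7.97 are tied to the definition of stop-codon clones by a stop in the CDR3. The share ran from -1.51 to -0.860 with 1 mouse left out. Against WT, the share of stop-codon clones among stop-codon and in-frame clones together differed by -0.141 (β5i-KO), -0.0145 (β5t-KO) and -0.158 points (BIT). The β5i-KO and BIT differences were past the threshold. A link of this share with the molecules per in-frame clonotype was not tested. Stop-codon clones alone also gave a β5i-KO length of 1.54, a BIT SD of 2.36 and TRAJ numbers of -0.851 (β5i-KO) and 0.896 (BIT). Their class differences were 1.49 for the β5i-KO length and 0.348 for the BIT TRAJ number. The molecule ratio with out-of-frame clones, without error-like clones and with at least 2 molecules was -0.0200, -0.0476 and -0.0240 in β5i-KO and -0.0285, -0.0577 and -0.0555 in BIT mice. With 1 mouse left out it ran from -0.0381 to 0.0863 (β5i-KO), -0.0986 to 0.0259 (β5t-KO) and -0.0387 to 0.0857 (BIT). Without error-like clones the β5t-KO length difference was -0.00133. The β5i-KO SD of length was -0.110 weighted by molecules, -0.226 with at least 2 molecules and -0.159 to 0.151 with 1 mouse left out, and the BIT SD -0.168 to 0.0150. The TRAJ number ran from -0.0706 to 0.337 (β5i-KO) and -0.737 to 0.112 (BIT). Added bases were -0.00424 with at least 2 molecules (β5i-KO), -0.0395 weighted by molecules (β5t-KO) and -0.0189 with BIT replicate 3, and ran from -0.0153 to 0.0616 (β5i-KO) and -0.0213 to 0.167 (β5t-KO). The length excess against WT with out-of-frame clones only and without error-like clones was -0.202 and -0.283 (β5i-KO) and -0.600 and -0.713 (β5t-KO), each past the threshold, and with 1 mouse left out ran from -0.212 to -0.117 and -0.631 to -0.497. With BIT replicate 3 the BIT length excess was -0.0785 and the BIT TRAJ number difference between classes -1.46, past the threshold. The BIT V-trimming difference was 0.00894 weighted by molecules.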

Other observations

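Of the libraries that were left out, BIT replicate 3 had 53 non-productive of 527 clonotypes (10.1%), all out of frame, and β5t-KO replicate 5 had 1 of 25.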
